A study of Homo sapiens with 4 samples.

Results

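The regions described here are the wide peaks of an m5C map of PANC-1 cells, a long-established line of human pancreatic cancer. They were chosen by width alone: every peak measuring 345 bp or more from start to end, in either of the 2 deposited peak lists. This gave 320 of the 3177 peaks of replicate 1 and 487 of the 5742 peaks of replicate 2, together 807 of 8919. All 4 samples, 2 immunoprecipitated with an m5C antibody and 2 of input RNA, came from PANC-1 cells pretreated with extracellular vesicles (Evs) of cancer-associated fibroblasts (CAFs). There is no group without vesicles among the samples used here, so an effect of the vesicles could not be compared. Each list sets 1 immunoprecipitated library against the input library that carries its replicate number. The labels do not say that the replicates came from separate cultures, and their difference may be technical. The lists hold positions and a score for each peak but no read counts and no level of expression. The depth of the libraries is therefore unknown, and the labelled cell type could not be checked against its markers.

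5-methylcytosine (m5C) is a cytosine with a methyl group on its ring. In RNA it is placed by the NSUN family of methyltransferases and by TRDMT1, and it is bound by reader proteins such as ALYREF, an mRNA export adaptor, and YBX1, an RNA-binding protein. In MeRIP-seq the RNA is broken into pieces, the pieces that bind the antibody are sequenced beside input RNA, and a stretch with more bound than input reads is a peak. A peak is thus a window in which methylated bases may lie. A wide peak is a long window and does not by itself give the number of methylated bases.

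The width that chose the members was distributed differently in the lists. The wide share of the list was 10.1% in replicate 1 (9.07 to 11.2, a 95% interval by Wilson's method, as for all shares here) and 8.48% in replicate 2 (7.79 to 9.23), against a median width over all peaks of 167 bp and 141 bp. They held 24.7% of all bases under peaks in replicate 1 (142774 bp) and 26.8% in replicate 2 (276413 bp). The median wide peak measured 382 bp in replicate 1 (interquartile range 368 to 489) and 462 bp in replicate 2 (381 to 616.5). Peaks of 500 bp or more were 72 of the 320 wide peaks of replicate 1 (22.5%) and 204 of the 487 of replicate 2 (41.9%). Peaks of 1000 bp or more numbered 6 and 32. Replicate 2 thus held 1.52 times as many wide peaks as replicate 1, and 5.33 times as many of 1000 bp or more, where its whole list was 1.81 times as long. At the threshold itself, 4 replicate 1 peaks measured 345 bp and 4 measured 344 bp, and in replicate 2 the numbers were 2 and 1. Intervals of shares cover counting error only, and neighbouring peaks are not independent.

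A narrow band of widths stood out in replicate 1. Its commonest wide width was 380 bp, held by 20 peaks. The 7 widths from 377 to 383 bp held 59 peaks, where the 7 widths below (370 to 376 bp) held 24 and the 7 above (384 to 390 bp) held 10. In replicate 2 the same 3 bands held 16, 16 and 16 peaks. The band was chosen after the widths had been seen. Of its 59 replicate 1 peaks, 10 overlapped a replicate 2 peak. Over all 320 wide replicate 1 peaks 69 did (21.6%), and over the whole list 432 of 3177 (13.6%).

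**Figure D1:**
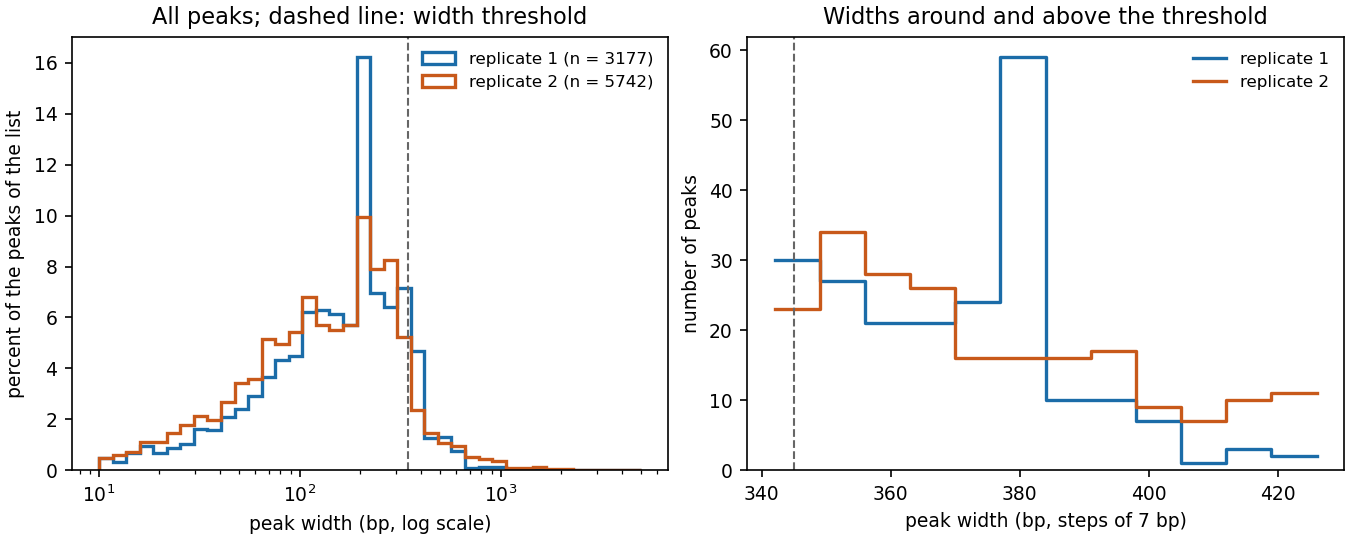
Left, percent of each list's peaks by peak width (bp, log scale) for replicate 1 and replicate 2, with the 345 bp threshold dashed. Right, number of peaks in steps of 7 bp around and above the threshold, where replicate 1 has 59 peaks from 377 to 383 bp and replicate 2 has 16.

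The widest peak of the map lay inside MKI67, which encodes the proliferation marker Ki-67, a large nuclear protein coating mitotic chromosomes. It spanned 4463 bp (chromosome 10, minus strand, 129900843 to 129905305, hg19), nearly double the 2290 bp of the next widest peak of replicate 2. Its score was 348.79, and 58.4% of the replicate 2 list scored lower. The score is the authors' own value for each peak, without a stated unit and not scaled between the lists. Replicate 1 had no wide peak there but had 2 ordinary ones inside the same window. The first, from 129902118 to 129902370, was 253 bp wide with a score of 3100. The other, from 129903958 to 129904204, was 247 bp wide with a score of 1026.4. Together they covered 500 bp, or 11.2%, of the wide peak. The replicates therefore overlapped in MKI67 while placing very different extents there. The nearest other replicate 2 peak on that strand lay 948655 bp away. The names of the other genes are not in the lists and come from general knowledge of hg19 positions, given for orientation, and whether a peak lies in an exon or an untranslated region was not analysed here.

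Of the other 9 widest peaks of replicate 2, 5 met no replicate 1 peak. BCL9L, a coactivator of the Wnt pathway, carried a peak of 2290 bp (chromosome 11, minus strand, 118771328 to 118773617) with a score of 100.76. KMT2B, a histone H3K4 methyltransferase, carried one of 1879 bp (chromosome 19, plus strand, 36210686 to 36212564) with a score of 549.03. BCOR, a corepressor of BCL6, carried one of 1810 bp (chromosome X, minus strand, 39932624 to 39934433) with a score of 98.26. The nearest replicate 1 peak lay 405898 bp, 696 bp and 5087121 bp away from these 3 peaks. PAX2, a transcription factor of kidney development, had 1780 bp under a peak (chromosome 10, plus strand, 102587919 to 102589698) with a score of 1018.98. YLPM1, a nuclear protein that binds protein phosphatase 1, had 1612 bp (chromosome 14, plus strand, 75264356 to 75265967) with a score of 406.68, and the nearest replicate 1 peak was 934364 bp away.

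The other 4 overlapped replicate 1, as MKI67 did. IGF2, the growth factor of an imprinted locus, carried 1715 bp (chromosome 11, minus strand, 2152556 to 2154270) with a score of 1532.9. Its replicate 1 partner was 301 bp wide and met it over 67 bp only. TNKS1BP1, a binding partner of tankyrase, carried 1651 bp (chromosome 11, minus strand, 57076380 to 57078030) with a score of 173.15. The replicate 1 peak of 604 bp, itself wide and with a score of 2326.62, lay wholly inside it. NPIPB5, a member of a primate gene family spread over chromosome 16, carried 1654 bp and a score of 3100. The remaining one was the 2028 bp peak on the plus strand of chromosome 8. Of the 10 widest replicate 2 peaks, 5 overlapped a replicate 1 peak, where 7.49% of the whole list did. A longer window meets more peaks by its length alone, which is taken up below. The score was 3100 in 2 of the 10, where 0.679% of the list scored 3100 or more. It was below the list's median of 281.27 in 3. Scores among these 10 thus ranged from 98.26 to 3100, and whether score goes with width was not tested. All 32 replicate 2 peaks of 1000 bp or more had a median score of 541.67, above that of the list.

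In replicate 1 the 10 widest peaks measured 828 to 1727 bp, and 8 of them overlapped a replicate 2 peak, where 13.6% of the whole list did. The widest, on chromosome 8 (plus strand, 86747844 to 86749570), lay wholly inside the 2028 bp peak of replicate 2, and both ended on the same base. Next came NPIPB11, a relative of NPIPB5, with 1406 bp (chromosome 16, minus strand, 29394205 to 29395610), a score of 3100 and no replicate 2 overlap. ANKRD11, a chromatin regulator that recruits histone deacetylases, followed NPIPB5 with 1066 bp and a score of 1908.55. ZFHX3, a large homeodomain transcription factor, had 980 bp (chromosome 16, minus strand, 72820959 to 72821938) with a score of 3100, and a replicate 2 peak of 369 bp lay inside it. AKT1S1, an inhibitory subunit of the mTORC1 kinase complex, had 921 bp (chromosome 19, minus strand, 50377333 to 50378253) with a score of 1579.82. It was without an overlap, the nearest replicate 2 peak lying 2359 bp away. POU3F3, a neural transcription factor, had 871 bp (chromosome 2, plus strand, 105471889 to 105472759) with a score of 755.46, and its replicate 2 partner measured 247 bp. Of these 10 peaks, 6 had the score 3100, which is the median of the whole replicate 1 list and was shared by 1638 of its peaks.

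The study's replicates were next compared at the wide peaks: did a position with a wide peak in one list carry a peak in the other? A shared base on the same strand was enough to count. Of the 320 wide replicate 1 peaks, 69 met a replicate 2 peak, or 21.6% (17.4 to 26.4). The share over the whole replicate 1 list was 13.6%, and over its 2857 narrower peaks it was 12.7% (11.5 to 13.98). Of the 487 wide replicate 2 peaks, 98 overlapped a replicate 1 peak, or 20.1% (16.8 to 23.9), against 7.49% of the whole replicate 2 list and 6.32% (5.69 to 7.01) of its 5255 narrower peaks. In most wide peaks of either list, then, the other list had no overlapping peak.

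A longer window meets more peaks by its length alone, so the same peaks were moved along the chromosome by each whole kb from 1 to 5 in both directions. At these 10 displaced places a mean of 1.22% of the wide replicate 1 peaks met a replicate 2 peak (range 0.313% to 3.75% over the moves). For wide replicate 2 peaks the mean was 1.85% (0.616% to 4.52%). In place, the peaks thus overlapped 17.7 times as often in replicate 1 and 10.9 times as often in replicate 2. The highest moved shares came from moves of 1 kb. A move of 1 kb leaves a peak of over 1000 bp partly in place. Counting only moves longer than the peak itself, chosen as an alternative after the data were seen, the moved shares were 1.004% and 1.38%. This kept 32 of the 39 overlaps at moved places in replicate 1 and 66 of the 90 in replicate 2. Why the moves of 1 kb gave the highest shares was not tested. For narrower peaks the observed share was 18.2 times the moved mean in replicate 1 and 23.2 times in replicate 2. Wide peaks thus overlapped more often in percent, while the multiple over the moved places was 17.7 against 18.2 in replicate 1 and lower than for narrower peaks in replicate 2. With each peak reduced to its centre base, the multiple was 28.2 for wide and 21.3 for narrower peaks in replicate 1. In replicate 2 it was 27.1 and 31.6. Which multiple was higher in replicate 1 thus depended on the measure. The moves take no account of exons, and these differences were not tested.

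The share of overlapping peaks was higher in most of the wider classes. In replicate 2 it was 2.23% for peaks under 50 bp, 9.59% from 200 to 344 bp, 24.4% from 500 to under 1000 bp (42 of 172), and 16 of the 32 peaks of 1000 bp or more overlapped (interval 33.6% to 66.4%). In replicate 1 it was 8.87% under 50 bp, 16.2% from 200 to 344 bp and 22.7% from 500 to under 1000 bp (15 of 66), and 5 of the 6 peaks of 1000 bp or more overlapped. The class from 400 to under 500 bp was below the one before it in both lists, at 14.3% (8 of 56, interval 7.42 to 25.7) after 21.4% in replicate 1 and at 13.7% (16 of 117, 8.60 to 21.1) after 14.5% in replicate 2. Among narrower peaks of replicate 1, those from 50 to under 100 bp were at 7.95%, below those under 50 bp. When each peak was reduced to its centre base, 15.0% of the wide replicate 1 peaks (11.5 to 19.3) lay in a replicate 2 peak against 10.05% of narrower ones (8.996 to 11.2). In replicate 2 the centre shares were 11.7% (9.14 to 14.9) and 4.51% (3.98 to 5.11). The difference between wide and narrower peaks was thus smaller with the centre base, in percentage points, in both lists. For peaks of 1000 bp or more the centre share was 3 of 6 in replicate 1 and 6 of 32 in replicate 2. The moved mean of their centre base was 3.33% and 2.5%. The moved mean of these whole peaks was 13.3% (0% to 66.7%) and 12.2% (3.125% to 34.4%). With only moves longer than the peak it was 2.08% and 6.10%.

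**Figure D2:**
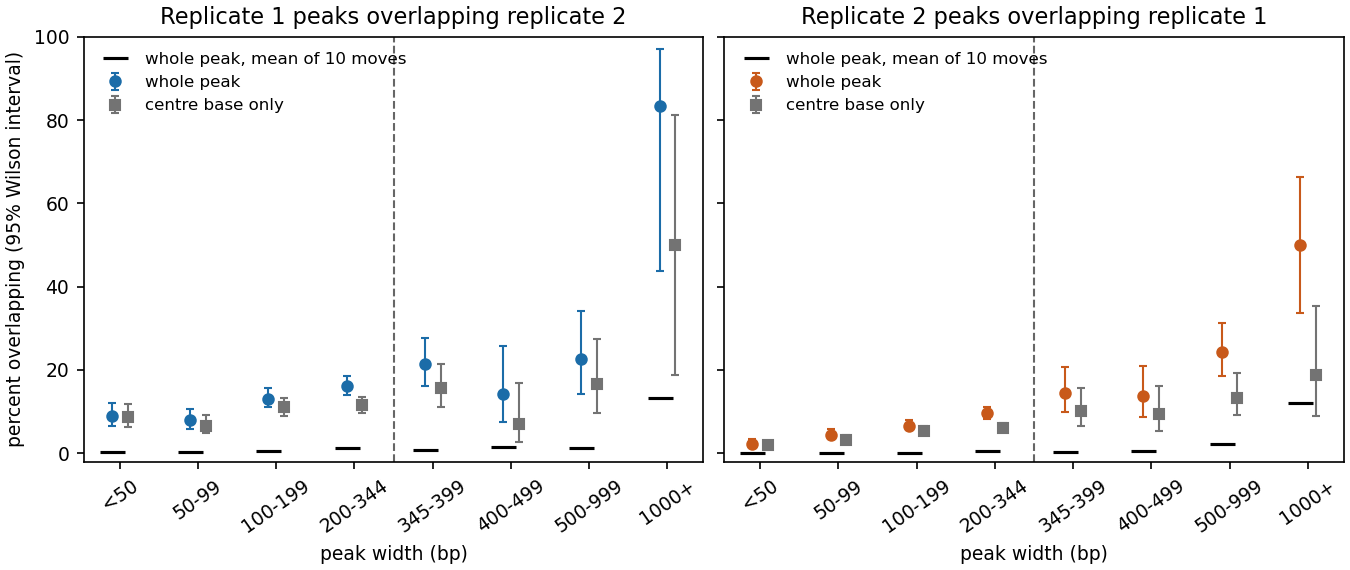
Percent of peaks overlapping the other list (y axis) by peak width class in bp (x axis), for the whole peak and for its centre base, with 95% Wilson intervals. Black dashes give the mean for whole peaks over the 10 moves of 1 to 5 kb, and the dashed line marks 345 bp. In the widest class 5 of 6 replicate 1 peaks and 16 of 32 replicate 2 peaks overlap.

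Wide peaks of one list met wide peaks of the other in 36 pairs. This is 11.25% of wide replicate 1 peaks (8.24 to 15.2), where 3.24% of the whole replicate 1 list overlapped a wide replicate 2 peak. From replicate 2 it is 7.39% (5.39 to 10.1), where 1.24% of the whole list overlapped a wide replicate 1 peak. At the moved places the mean was 0.625% and 0.411%. The width found in the list that did not choose the peak can also be read directly. Replicate 2 peaks that held the centre of a wide replicate 1 peak had a median width of 426 bp (interquartile range 298 to 706.25, n = 48), and 34 of them were wide. Those that held the centre of a narrower replicate 1 peak had a median of 203 bp (123 to 303, n = 285), and 51 were wide. Chosen in replicate 2, the partners in replicate 1 had medians of 353 bp (263 to 389, n = 57) and 187 bp (118 to 256, n = 237). Where the lists overlapped, the partner of a wide peak was thus the wider one at the median. The interquartile ranges met at their ends in the first direction and did not overlap in the other. No test over peaks was made.

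The 36 pairs overlapped over a median of 378.5 bp (53 to 1727 bp), and the replicate 2 peak was the wider in 29 of them. The replicate 1 peak lay wholly inside the replicate 2 peak in 20 pairs and the reverse held in 3. Exact edges were less frequent than among narrow peaks: 10 of the 36 pairs (27.8%, 15.8 to 43.99) began or ended on the same base, against 200 of the 297 pairs without a wide peak (67.3%, 61.8 to 72.4). None of the 36 pairs wide in both lists was identical at both ends, where 36 of those 297 pairs were. Pairs wide in 1 list only cannot be identical, since their widths lie on opposite sides of the threshold. The intervals for a shared edge do not overlap, but pairs share transcripts and the difference was not tested.

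After the region on chromosome 8, the longest overlap was in NPIPB5, where both peaks began at 22544947 on the plus strand of chromosome 16 and overlapped over 1165 bp, with scores of 887.78 and 3100. ANKRD11 followed with 950 bp, from the replicate 1 peak at 89365526 to 89366591 and the replicate 2 peak at 89365642 to 89366763, and with scores of 1908.55 and 2587.12. A second place in ANKRD11, from 89345792 to 89346144 in replicate 1, was wide in both lists too, at 353 and 608 bp. MUC2, a secreted gel-forming mucin, had peaks of 828 and 757 bp that overlapped over 697 bp, with scores of 3100 and 2802.95. In TNKS1BP1 the overlap was 604 bp. MTRNR2L8, a humanin-like nuclear copy of mitochondrial ribosomal RNA, had peaks of 598 and 1290 bp ending on the same base, both with the score 3100. The width of 1290 bp equals the length that RefSeq gives for this gene.

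The remaining named overlaps lay in RTN4, LRFN1 and HNRNPU. RTN4, the gene of the neurite growth inhibitor Nogo, had peaks of 533 and 831 bp with low scores in both lists, 161.26 and 74.82. LRFN1, a synaptic adhesion protein, had 525 and 1325 bp with scores of 3100 and 625.18. HNRNPU, a nuclear RNA- and DNA-binding scaffold protein, had 507 and 909 bp with scores of 69.41 and 3100. A region on the minus strand of chromosome 7 (102277573 to 102278051 in replicate 1) had 479 and 886 bp with scores of 3100 and 78.64. HNRNPU and the chromosome 7 region thus had a score under 100 in one list and 3100 in the other. Of the 36 pairs, 2 had 3100 or more in both, those of chromosome 8 and MTRNR2L8. Among the 297 pairs without a wide peak it was 4, and among all 435 pairs 6.

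**Figure D3:**
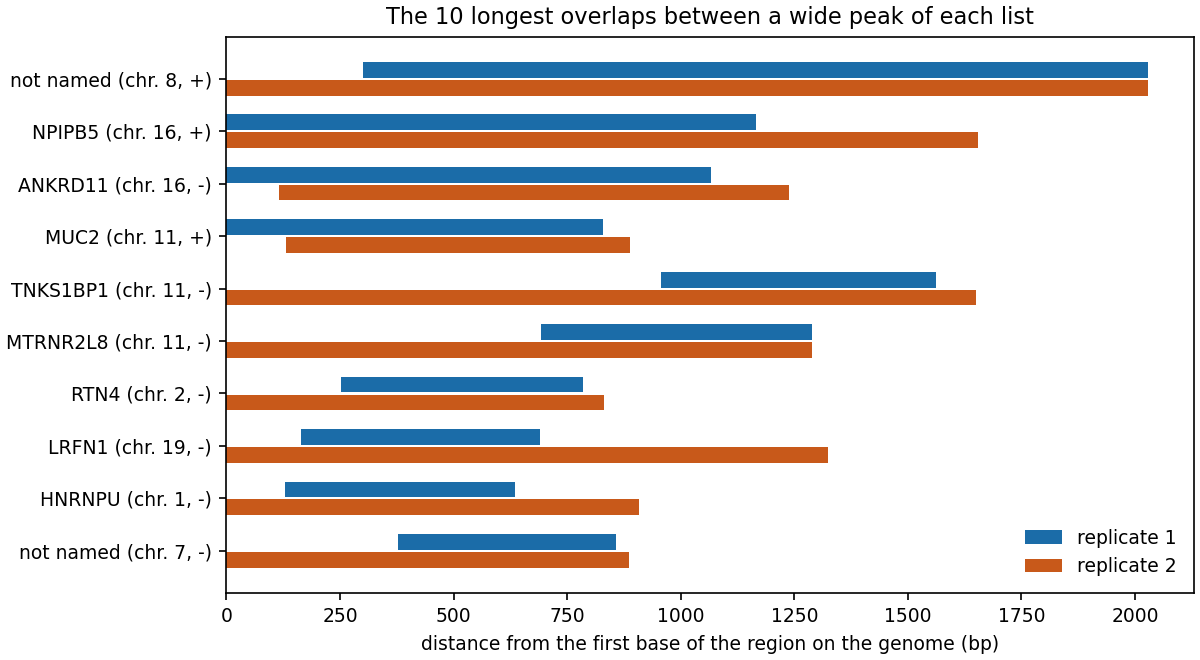
The 10 longest overlaps between a wide peak of each list, drawn to scale as distance in bp from the first base of the region (x axis), with the replicate 1 peak above the replicate 2 peak in each row. The replicate 1 peak lies wholly inside the replicate 2 peak in 8 rows, all but ANKRD11 and MUC2.

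Several wide peaks recurred as copies of equal width. FAM156A and FAM156B, near-identical genes facing each other on chromosome X, each had a replicate 1 peak of 1057 bp with the score 3100, at 52936447 to 52937503 on the plus strand and 52976546 to 52977602 on the minus strand. Each also met a replicate 2 peak of 262 bp over 224 bp. POTEI, POTEJ and POTEE, members of a primate gene family on chromosome 2, each had a replicate 1 peak of 364 bp, with scores of 65.52, 65.52 and 57.61. All 3 overlapped a wide replicate 2 peak, of 357, 395 and 395 bp with scores of 1672.35, 1095.01 and 1291.05. The starts in POTEJ and POTEE lay 606806 bp apart in both lists. On the minus strand of chromosome 18, replicate 1 had 3 peaks of 356 bp with starts at 44542866, 44548793 and 44554708, which are 5927 and 5915 bp apart. Only 9 of 31 gaps between successive equal-width wide peaks of a chromosome were within 1 Mb in replicate 1, and 5 of 22 in replicate 2. How reads that match several copies were placed is not given in the sources used here, so peaks in such copies, NPIPB genes and MTRNR2L8 included, are uncertain as to which copy they came from.

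FCGBP, a mucus protein built from repeated von Willebrand domains, held the most wide peaks of any cluster, where a cluster joins peaks of either list on 1 strand as long as no gap exceeds 10 kb. It had 3 wide of 13 replicate 1 peaks and 7 wide of 14 replicate 2 peaks over 66.1 kb of chromosome 19 (minus strand, 40367298 to 40433430). In replicate 2, 3 peaks of 617 bp started 16253 and 15688 bp apart, with scores of 777.72, 826.02 and 497.57. Inside each lay a replicate 1 peak of 387, 389 and 387 bp that ended on the same base, with scores of 1805.13, 3100 and 154.43. Replicate 2 also had 2 peaks of 544 bp, 15684 bp apart, with scores of 2194.21 and 2457.69. These repeated widths are those of one gene and are not independent peaks.

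**Figure D4:**
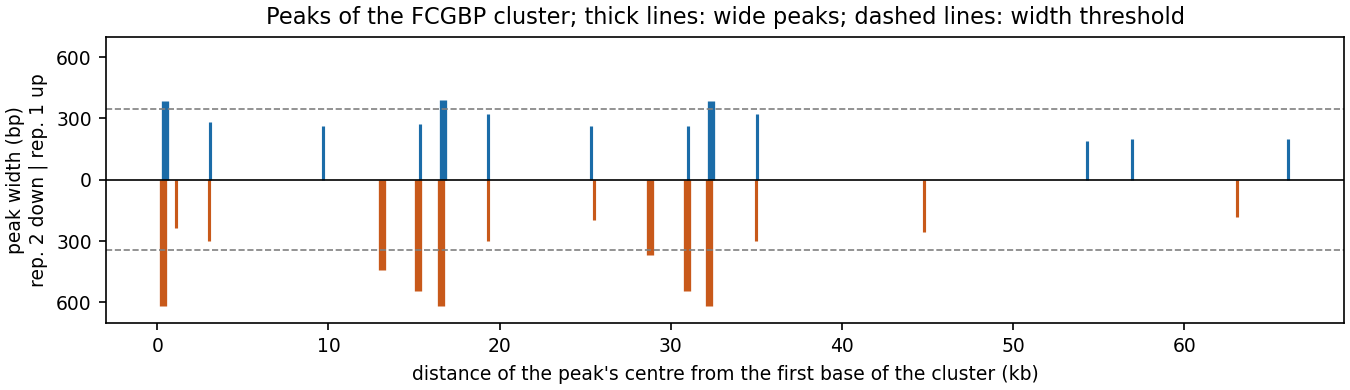
All peaks of the FCGBP cluster by the distance of their centre from the first base of the cluster (x axis, kb) and by width (y axis, bp), replicate 1 upward and replicate 2 downward. Thick lines are the 3 and 7 wide peaks, dashed lines mark 345 bp, and the 3 replicate 2 peaks of 617 bp each face a wide replicate 1 peak.

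MUC12, a membrane-bound mucin of the gut, was another gene with several wide peaks in both lists. Its 2 wide replicate 1 peaks measured 453 bp each, 4671 bp apart with the score 3100 in both (chromosome 7, plus strand, starts at 100639131 and 100643802). Its 3 wide replicate 2 peaks measured 1018, 1216 and 542 bp, with scores of 807.72, 1006.54 and 566.34, and none of them overlapped a wide replicate 1 peak. The 1018 bp peak met narrower replicate 1 peaks of 200 and 343 bp, over 200 and 9 bp. The 1216 bp peak met 2 of 343 bp each, over 127 and 10 bp. The wide replicate 1 peak starting at 100643802 met a replicate 2 peak of 252 bp over 239 bp. The other wide replicate 1 peak and the 542 bp peak met none. The chromosome 18 region held 3 wide peaks of replicate 1 and 2 of replicate 2, of 894 and 691 bp, and the latter met one of the 3. The last cluster that reached 3 wide peaks lay on the plus strand of chromosome 17 and held them in replicate 2 only. A peak of 774 bp lay in RUNDC1 and peaks of 355 and 352 bp in RPL27, a protein of the large ribosomal subunit, with scores of 234.84, 822.69 and 2237.52.

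Of the 807 wide peaks of both lists, 469 (58.1%) were the single peak of their cluster, near the 62.02% of all 8919 peaks. In replicate 1, 12.2% of wide peaks (9.04 to 16.2) had another peak of the list within 10 kb on the same strand, against 21.5% of the whole list, and the median distance was 222231 bp against 130998 bp. In replicate 2 the share was 23.8% (20.3 to 27.8) against 24.6%, with medians of 83908 bp and 59557 bp. Within 1 kb, 3.75% of wide replicate 1 peaks had a neighbour (2.16 to 6.44) against 8.78% of the list, and in replicate 2 it was 6.16% (4.35 to 8.66) against 3.95%. Wide replicate 1 peaks thus had fewer neighbours than their list at both distances. In replicate 2 the shares were near each other at 10 kb, and at 1 kb wide peaks had more neighbours than their list. These differences were not tested. Another wide peak lay within 10 kb of 7 of the 320 wide replicate 1 peaks (2.19%, 1.06 to 4.45). In replicate 2 this held for 26 of 487 (5.34%, 3.67 to 7.71). These neighbours are part of those counted above, so their shares could not be higher. Wide peaks were 10.1% and 8.48% of the lists. At the level of clusters, 98 of the 314 with a wide replicate 1 peak also held a replicate 2 peak of any width (31.2%, against 27.4% of all clusters with replicate 1 peaks). The reverse held for 135 of 469 (28.8% against 15.5%).

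Wide peaks lay on 23 of the 24 chromosomes of each list, and chromosome Y, with 2 and 9 peaks, had none. Chromosome 19 held the most, 28 in replicate 1 and 57 in replicate 2. In replicate 2 wide peaks were 13.01% of the peaks of chromosome 16 (9.63 to 17.4) and 12.6% of those of chromosome 19 (9.82 to 15.9), against 8.48% of the list. In replicate 1 the same chromosomes were at 9.94% and 9.93%, near the 10.1% of the list. Chromosome 9 had 15.7% wide peaks in replicate 1 (10.6 to 22.6) and 6.36% in replicate 2 (3.83 to 10.4). None of these 3 chromosomes stood above its list in both replicates. Those that did were chromosomes 6 (12.7% and 9.47%), 11 (10.2% and 10.4%), 14 (11.1% and 8.78%) and 18 (14.1% and 9.59%). The intervals of these all included the share of the list, and the differences were not tested. The plus strand held 47.2% of wide peaks in replicate 1 (41.8 to 52.7) and 50.7% in replicate 2 (46.3 to 55.1), where the lists as a whole had 50.7% and 51.8%.

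Scores of wide peaks come from the same immunoprecipitation and input as their widths and are given as a description. In replicate 1, 37.2% of wide peaks (32.1 to 42.6) scored 3100 or more, against 52.1% of the list, and the median was 1702.7 against 3100. The lower value was that of the class from 345 to under 400 bp, with 45 of 192 (23.4%) and a median of 1009.01. From 400 to under 500 bp it was 35 of 56, and from 500 to under 1000 bp 35 of 66, both with a median of 3100. The band from 377 to 383 bp was lower again, at 4 of 59 (6.78%, 2.67 to 16.2) with a median of 591.82, and 9 of its 59 peaks scored under 50, against 5.29% of the list. Without that band the share was 44.1% (38.2 to 50.1).

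In replicate 2 the median of wide peaks was 270.51 against 281.27 for the list. The 166 peaks from 345 to under 400 bp had a median of 214.34, the lowest of the 8 width classes as in replicate 1, and the 32 of 1000 bp or more had one of 541.67. Among the 487 wide peaks, 15 scored 3100 or more (3.08%, 1.88 to 5.02), against 0.679% of the list. Scores were also read in the list that did not choose the peak, first over all partners that overlapped by any base. Replicate 2 partners of wide replicate 1 peaks had a median of 544.86 (interquartile range 187.4 to 1122.65, n = 71), and partners of narrower ones 307.92 (133.6 to 725.585, n = 359). Replicate 1 partners of wide replicate 2 peaks scored 3100 or more in 45 of 103 (43.7%, 34.5 to 53.3), and those of narrower ones in 187 of 330 (56.7%, 51.3 to 61.9). The ranges overlapped in the first comparison and the intervals in the second. Over partners that held the centre base, the medians of the first comparison were 601.6 and 302.2. The shares of the second were 20 of 57 (35.1%, 24.0 to 48.1) and 133 of 237 (56.1%, 49.8 to 62.3), with intervals that did not overlap.

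**Figure D5:**
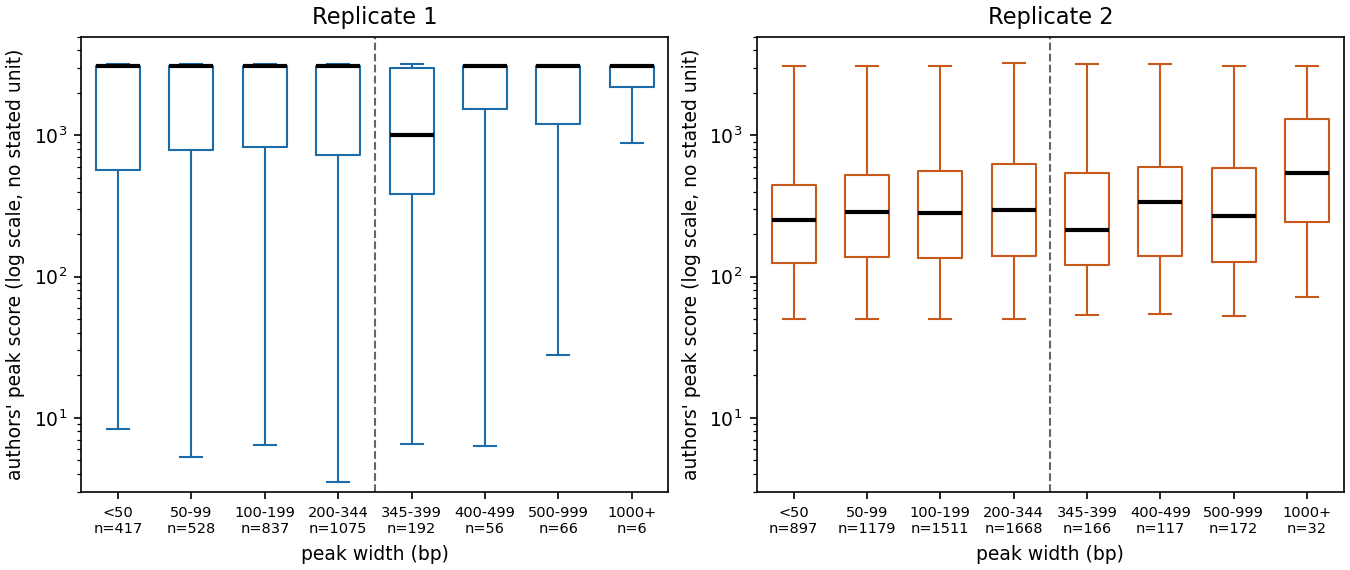
The authors' peak scores (y axis, log scale, no stated unit) by width class in bp (x axis) in each list. Boxes are quartiles with the median in black, whiskers reach the lowest and highest peak, and the dashed line marks 345 bp. In replicate 1 the class from 345 to under 400 bp has a median of 1009.01 where every other class has 3100.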

How the data were processed

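Each deposited list has 6 columns, with peak positions in bases and a score per peak, deposited by the authors without a stated scale. The submitters' processing notes name the trimmer cutadapt 1.9.3 and the build hg19, and peak names begin with MACS. Not given in the sources used here were caller version, thresholds, aligner and depth. A different threshold per replicate would change widths and numbers of peaks. The lowest score was 3.51 in replicate 1, where 168 of the 3177 peaks scored under 50. In replicate 2 the lowest was 50.13, so none of its 5742 peaks scored under 50. Whether this difference bears on widths, numbers or overlaps was not tested. Starts were read as 0-based and are printed 1-based. Overlaps were computed in Python 3.11.15 with pandas 2.3.3, numpy 2.4.6 and statsmodels 0.14.6 (Wilson intervals) and their number was checked against bedtools 2.31.1. The code was tested on copies of replicate 1 peaks moved by known distances and on a small made-up set of peaks.

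The members, lists and rules were chosen with earlier results of these data known. Named are the 10 widest peaks per list, the 10 longest overlaps of 2 wide peaks, and clusters with 3 or more wide peaks in 1 list, or at least 4 in all with both lists present. The equal-width copies, the second place in ANKRD11 and the width band were added after values were seen. No test was run over peaks, which are not replicates.

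No hg19 annotation or genome was used here, so exons, untranslated regions, sequences and the lists of m5C enzymes and cell markers were left out. Gene names, apart from MKI67, come from general knowledge of hg19 positions, a departure from the plan to name genes only from an hg19 reference. For all 43 names the chromosome matched the RefSeq table of GRCh38.p14, for 30 of the 30 with a listed strand the strand matched, and 29 of 29 neighbouring pairs had the same order. Of the values printed, 1 rests on a name, the RefSeq length set beside the MTRNR2L8 peak.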

Additional observations from a re-analysis of the deposited data

How the results depend on the processing

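Of 39 alternatives, 24 left the value within the 95% Wilson interval of the reported one, 15 moved it, and 6 of those moved it up. Counting a wide replicate 1 peak as shared only with a reciprocal overlap of 50% gave 12.8% in place of 21.6%, and for replicate 2 it gave 9.24% in place of 20.1%. The whole lists were at 7.65% and 4.23% by that rule. With both lists limited to their median score or above, the shares were 11.8% and 11.25%, against 7.92% and 4.56% of all peaks so limited. Those meeting a wide peak of the other list were 5.88% and 2.92%, against 1.75% and 0.522%. The filter also left fewer peaks to meet. With the centre base the shares were 15.0% and 11.7%, against 10.5% and 5.12% of the whole lists. A threshold of 500 bp gave 27.8% and 28.4%, where the whole lists stayed at 13.6% and 7.49%. Of such replicate 1 peaks, 16.7% met a replicate 2 peak of 500 bp or more, against 1.98% of the whole replicate 1 list. Of wide replicate 1 peaks, 37.2% reached the list's median score, and this share was 44.4% with a threshold of 300 bp, 54.2% with 500 bp and 44.1% without widths of 377 to 383 bp. The moved share of wide replicate 2 peaks was 1.38% with moves longer than the peak, which was chosen after seeing the data. Either strand and 1 wide peak per cluster moved none of the values computed. In each overlap alternative with moved places, the observed share was above the moved mean. No replicate could be left out, since each list is 1 replicate and the comparison needs both. No paired analysis was possible because no groups of samples were compared and no result comes from a test. Depth is unknown, so how far it limits width and overlap was not tested.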
